A study of Mus musculus with 6 samples.

Results

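Transcripts of 10 genes of the exosome pathway were followed across 6 conditions of RAW264.7, an established line of mouse macrophages. The genes were taken by name. They are the tetraspanins Cd63, Cd9, Cd81 and Cd82, the sorting proteins Hgs, Tsg101, Pdcd6ip and Vps4b, the syndecan adaptor Sdcbp and the secretory GTPase Rab27a. All 10 were found among the 24062 genes of the count tables, and all 10 passed the filter on low counts used for testing.

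M0 macrophages were not polarized. Per the labels, M1 macrophages had received LPS (100 ng/mL) with IFN-γ (20 ng/mL), and M2 macrophages IL-4 (20 ng/mL), in both cases for 24 h, while a figure legend of the study gives other doses of both cytokines. RM0, RM1 and RM2 were the corresponding states given 10 Gy of gamma radiation and kept in culture for 24 h more. The sources used here do not say whether non-irradiated cells were also kept for these 24 h, so irradiation and added time in culture cannot be told apart. Each condition had 1 library, prepared per the study's methods from RNA pooled over several culture wells, so no condition has a replicate of its own. The labels give bone marrow as the source and RAW264.7 as the cell line, and RNA of the cells was sequenced, not RNA of their exosomes. The total count was 18246280 for M0 and 18660435 for RM0, 18472101 for M1 and 18870516 for RM1, and 17894937 for M2 and 18154365 for RM2.

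Exosomes form when the membrane of a late endosome buds inward and the resulting multivesicular body fuses with the plasma membrane. Tetraspanins span the vesicle membrane and organize its cargo. The ESCRT complexes gather ubiquitinated cargo and cut the bud, ALIX (Pdcd6ip) and syntenin (Sdcbp) link the ESCRT machinery to syndecans, and RAB27A docks multivesicular bodies at the cell surface. Macrophages use the same endosomal route to degrade what they take up.

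The labelled cell type was checked against marker genes. Macrophage genes were abundant, with Lyz2, a lysozyme, at 199329 to 580239 counts and Cd68, a lysosomal glycoprotein, at 12059 to 15298 counts, whereas Mertk was at 3 to 8 counts. The epithelial markers Epcam, Krt8, Krt18 and Cdh1 had 0 counts in every library, which allows up to 3 counts in each, and the T cell and B cell markers together did not exceed 1 and 4 counts in a library. Nos2, the inducible nitric oxide synthase used as an M1 marker, was at 14393 counts in M0 and 169925 in M1, and at 22038 in RM0 and 129631 in RM1. Cd86, also an M1 marker, was at 176 counts in M0 and 493 in M1. Mrc1, an M2 marker which encodes CD206, had 10 counts in M0 against 6 in M2, but 5 in RM0 against 12 in RM2. Its highest value, 50, was in M1.

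The 10 genes together took 0.253% to 0.308% of all counts, lowest in RM2 and highest in M1. Their levels per length covered a wide range. On the scale of CPM (counts brought to a common library size with the TMM method of edgeR) per kilobase of the transcript named in the tables, the mean level over the 6 libraries was 874 for Cd63, 503 for Cd9, 258 for Sdcbp, 104 for Cd82 and 68.6 for Pdcd6ip. Hgs followed at 35.4, Vps4b at 30.5, Cd81 at 28.7 and Tsg101 at 25.3, and Rab27a was at 1.98. Places 1 to 5 and place 10 of this order were the same in all 6 libraries. Hgs, Vps4b, Cd81 and Tsg101 changed places, and their ranges overlapped in neighboring places of the order, from 31.3 to 40.9, 27.1 to 37.2, 26.5 to 31.7 and 23.0 to 28.3. The place of Cd63 depended on the length used: per kilobase of its longest annotated transcript its mean level was 315, below Cd9, and Pdcd6ip was then at 37.1.

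**Figure D1:**
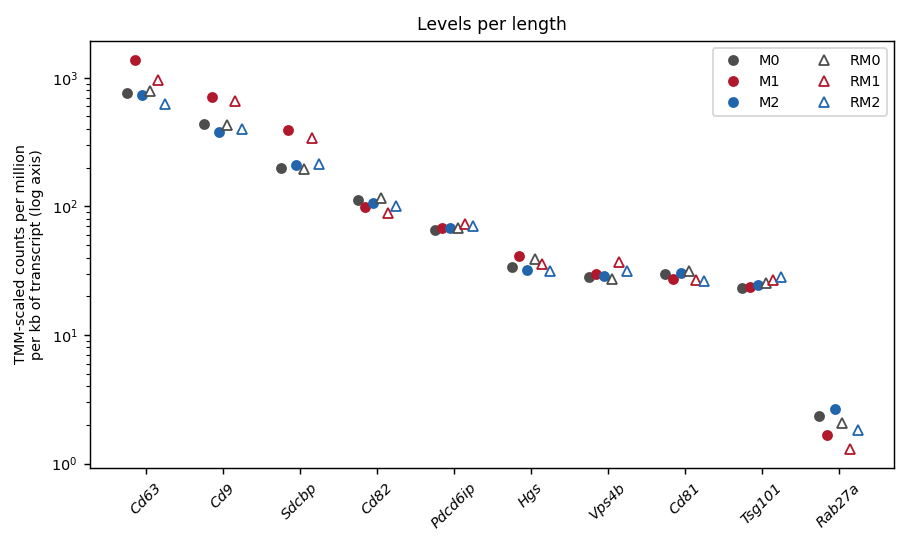
Level of each gene in each library as TMM-scaled CPM per kilobase of the named transcript, on a log axis, with genes ordered by their mean. Circles are non-irradiated and triangles irradiated libraries, 1 per condition. Cd63 was highest and Rab27a lowest in every library, and the levels of Hgs, Vps4b, Cd81 and Tsg101 overlapped.

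Genes differed in how far their level moved between libraries. The highest CPM was 2.21 times the lowest for Cd63, 2.02 times for Rab27a, 2.0 times for Sdcbp and 1.89 times for Cd9. For the other members it was 1.38 times for Vps4b, 1.33 times for Cd82, 1.31 times for Hgs, 1.23 times for Tsg101, 1.2 times for Cd81 and 1.1 times for Pdcd6ip. The median over the 8464 genes that reached 100 counts in all libraries was 1.59 times. Rab27a rested on 65 to 160 counts per library, and its range is therefore the least precise of the 10.

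**Figure D2:**
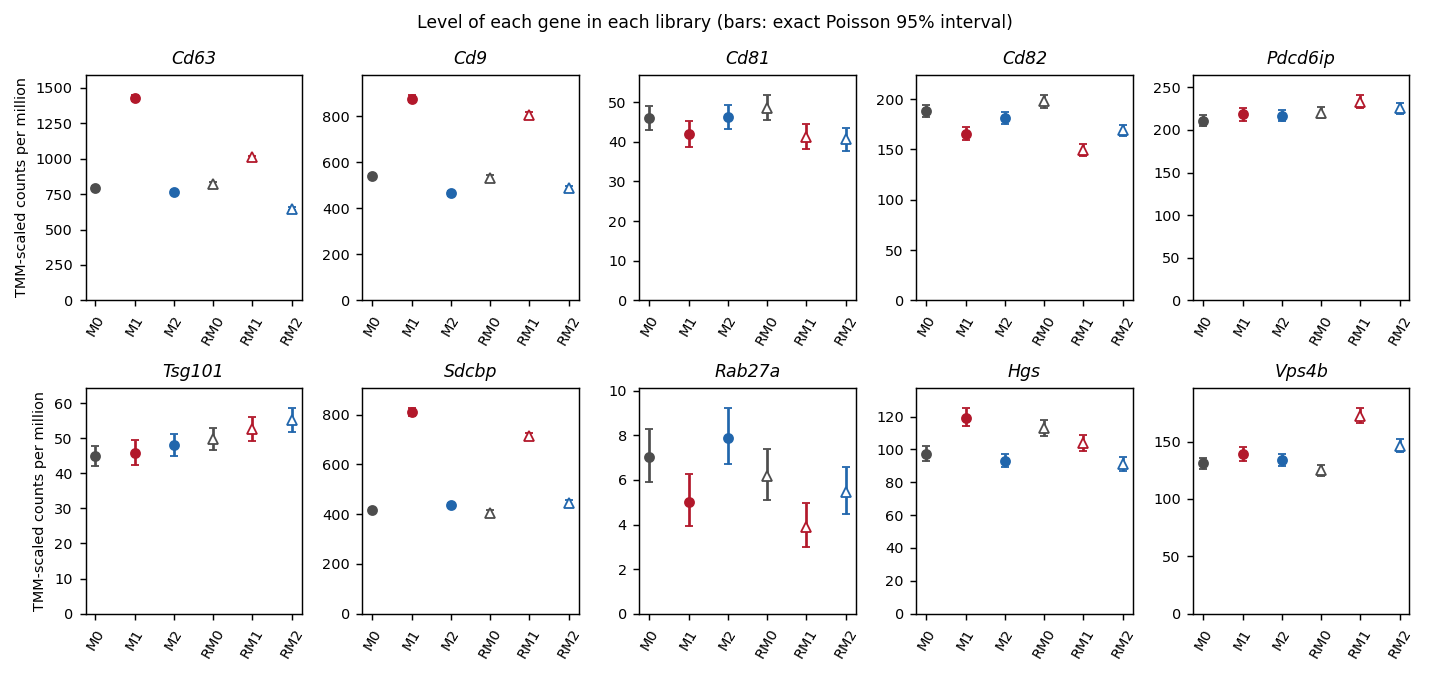
TMM-scaled CPM of each gene (vertical axes, each from 0) in the 6 libraries (horizontal axes), with bars for the exact Poisson 95% interval of the count, which covers counting error only. Circles are non-irradiated and triangles irradiated libraries. Cd63, Cd9 and Sdcbp were highest in M1 and RM1, and Pdcd6ip stayed between 211 and 233.

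Promoter sequence was read for the members in the RefSeq table (build GRCm38.p6), from 250 bases before to 50 bases after each start that the table uses. Windows were found for 9 of the 10 genes, 13 windows in all, and there was no entry for Sdcbp. Motif letters were searched on both strands: the E-box CACGTG, the CLEAR-type TCACGTG that contains it, GAS TTCNNNGAA, and ISRE core, STAT6-type and NF-kB-type motifs. The windows of Cd63, Cd9 and Pdcd6ip are shown because Cd63 and Cd9 were higher in the M1 states while Pdcd6ip was nearly level in all libraries. Capitals mark motif matches.
Cd63, chr10:128909095-128909394, plus strand: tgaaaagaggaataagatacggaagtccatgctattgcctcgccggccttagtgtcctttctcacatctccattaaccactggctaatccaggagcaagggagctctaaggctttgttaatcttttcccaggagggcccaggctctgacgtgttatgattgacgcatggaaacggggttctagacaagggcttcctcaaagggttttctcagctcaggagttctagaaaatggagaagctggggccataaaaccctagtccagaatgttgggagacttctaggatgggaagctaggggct
Cd9, chr6:125494711-125495010, minus strand: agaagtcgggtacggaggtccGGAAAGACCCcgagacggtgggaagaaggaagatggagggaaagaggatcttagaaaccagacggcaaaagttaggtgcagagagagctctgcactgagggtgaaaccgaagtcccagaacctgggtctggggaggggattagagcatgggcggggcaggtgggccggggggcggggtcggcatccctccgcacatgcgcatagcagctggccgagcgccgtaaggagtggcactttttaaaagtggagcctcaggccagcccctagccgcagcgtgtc
Pdcd6ip, chr9:113708210-113708509, minus strand: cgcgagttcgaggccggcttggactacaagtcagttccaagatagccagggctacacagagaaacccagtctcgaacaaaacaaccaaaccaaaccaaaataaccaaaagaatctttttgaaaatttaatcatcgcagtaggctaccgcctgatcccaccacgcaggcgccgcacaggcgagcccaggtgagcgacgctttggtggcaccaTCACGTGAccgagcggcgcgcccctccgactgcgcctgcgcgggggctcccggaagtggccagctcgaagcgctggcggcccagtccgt
The Cd63 window held none of the motifs. It lies inside the gene, which the count tables list from 128908919 and the annotation from 128900989, so it covers neither of these starts. The Cd9 window held the NF-kB-type letters on the opposite strand, GGAAAGACCC, with the first base at -229 from the start, and 1.63% of the 32851 windows in the table held that motif. The Pdcd6ip window held TCACGTG at -39, in which the E-box begins at -38. The E-box was in 7.15% of all windows and the CLEAR-type motif in 3.77%. Among the other members, Hgs had an ISRE core match at 6 (3.44% of windows), 1 of the 4 Cd82 windows a GAS match at 2 (8.3%), and 1 of the 2 Rab27a windows an E-box at -246. No STAT6-type match was present, a motif held by 6.95% of windows. These matches describe letters and carry no measurement of binding.

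With 1 library per condition, effects were tested only as effects shared by several pairs of libraries. One edgeR quasi-likelihood fit on polarization and irradiation over 11574 genes gave a shared M1 effect (M1 against M0 and RM1 against RM0), a shared M2 effect and a shared irradiation effect. The pairs stand in for replicates, so the test assumes the same effect in each pair, and the M1 and M2 effects share the libraries M0 and RM0. Calls were made at a Benjamini-Hochberg adjusted p under 0.05. In fits with 1 library left out, 1 residual degree of freedom remains, and an arm left with 1 library is assumed to vary like the other groups.

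The question of the first comparison was whether polarization toward M1 changed these transcripts. Sdcbp, Cd9 and Cd63 rose with M1 polarization and Rab27a fell. That made 4 of 10 members called, 3 higher and 1 lower, against a background of 47.6% of all genes tested (23.3% higher and 24.3% lower), so the share of members called was near the background. The median log2 fold change was 0.08 over the members and -0.02 over all genes. The levels of M1 and RM1 did not overlap those of M0 and RM0 for 7 of 10 members, and for 72.0% of all genes.

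Sdcbp encodes syntenin, the adaptor that joins syndecans to ALIX. Its level was 811 CPM in M1 and 712 in RM1, compared with 416 in M0, 406 in RM0, 437 in M2 and 445 in RM2. Both M1 libraries were high and the other 4 lay close together. The shared M1 log2 fold change was 0.89 ± 0.13 (SE, 2 pairs; edgeR adjusted p = 0.000382). The sources used here do not say whether counting used the strand. In the annotation Sdcbp overlaps Nsmaf on the opposite strand over 12217 bp. The range listed for Sdcbp ends at 6396122, before the annotated end at 6408423. How much of the overlap falls in the listed range is not given here. Nsmaf itself had 389 to 677 counts, with its lowest values in M1 and RM1.

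Cd9 encodes a tetraspanin common on exosomes. It was at 876 CPM in M1 and 805 in RM1, compared with 539 in M0, 532 in RM0, 464 in M2 and 489 in RM2. The M1 libraries were again the 2 highest, and the shared M1 log2 fold change was 0.65 ± 0.13 (SE, 2 pairs; edgeR adjusted p = 0.0025). Of the 100-base windows of the Cd9 transcript, 10.5% were also in the annotated transcript Gm26728, so its counts are uncertain to that extent.

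Cd63 encodes the tetraspanin of late endosomes and lysosomes that is most used as an exosome marker. Its level was 1430 CPM in M1 and 1010 in RM1, compared with 797 in M0, 821 in RM0, 766 in M2 and 647 in RM2. M1 stood well above the rest, with RM1 between it and the other 4. The shared M1 log2 fold change was 0.57 ± 0.16 (SE, 2 pairs; edgeR adjusted p = 0.0134). This call was lost without the M0 library (0.36, adjusted p = 0.302; range over 12 alternatives 7.45e-10 to 0.302) and with scaling by library totals alone (0.22, adjusted p = 0.152). The range listed for Cd63 in the tables covers 33.0% of the annotated gene.

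Rab27a encodes the GTPase that docks multivesicular bodies at the plasma membrane. It was at 5.00 CPM in M1 and 3.90 in RM1, compared with 7.01 in M0, 6.18 in RM0, 7.89 in M2 and 5.44 in RM2. M1 and RM1 were the 2 lowest, with RM2 just above M1. The shared M1 log2 fold change was -0.57 ± 0.22 (SE, 2 pairs; edgeR adjusted p = 0.0475). The call held under 4 of 12 alternatives, with adjusted p between 0.0109 and 0.299, and it was not made by DESeq2 (-0.56, adjusted p = 0.169). With a library left out the fold change stayed between -0.71 and -0.44. Without the M0 library the adjusted p was 0.106, without M1 0.0594, without M2 0.125, without RM0 0.299 and without RM2 0.122.

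The other tetraspanins of the group had lower fitted values with M1 that did not pass. Cd82, a tetraspanin known as a metastasis suppressor, was at 188, 165, 181, 198, 149 and 169 CPM in M0, M1, M2, RM0, RM1 and RM2, and its shared M1 log2 fold change was -0.30 ± 0.12 (edgeR adjusted p = 0.0639). Cd81, a tetraspanin and co-receptor of lymphocytes, was at 45.9, 41.9, 46.2, 48.6, 41.3 and 40.6 CPM in the same order, with a log2 fold change of -0.18 ± 0.13 (adjusted p = 0.246). Without the M1 library, where RM1 alone stood for the M1 state and the spread came from the other groups, Cd82 was called lower (-0.36, adjusted p = 0.0126; range over 12 alternatives 0.00213 to 0.414). The level of Cd82 was lowest in RM1 and M1, and that of Cd81 in RM2, RM1 and M1. The range listed for Cd82 covers only 2.61% of the annotated gene and that for Cd81 35.8%, so where within these genes reads were counted is not known.

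The ESCRT members differed little between M1 and M0 states, and none of them passed. Hgs, the ESCRT-0 subunit that binds ubiquitinated cargo, was at 97.3, 119, 93.1, 113, 104 and 90.9 CPM in M0, M1, M2, RM0, RM1 and RM2 (M1 effect 0.08 ± 0.13, adjusted p = 0.622). Tsg101, the ESCRT-I subunit, was at 44.9, 45.9, 48.0, 49.7, 52.5 and 55.1 CPM (0.06 ± 0.12, adjusted p = 0.718), and 16.5% of its 100-base windows were shared with the pseudogene Tsg101-ps. Pdcd6ip, which encodes ALIX, was at 211, 219, 217, 220, 233 and 226 CPM (0.07 ± 0.12, adjusted p = 0.671), and Vps4b, the ATPase that takes ESCRT-III apart, at 131, 139, 134, 125, 172 and 146 CPM (0.27 ± 0.13, adjusted p = 0.103). The ranges of the M1 and M0 states overlapped for Hgs, Tsg101 and Pdcd6ip but not for Vps4b, which was highest in RM1. Without the M1 library, again with RM1 alone and the spread of the other groups, Vps4b was called higher (0.41, adjusted p = 0.00412; range over 12 alternatives 0.00412 to 0.706).

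The M1 values depend on the scale, because the TMM factors of M1 and RM1 (0.8004 and 0.8836) were below those of the other libraries (1.05 to 1.134). With library totals alone the median M1 log2 fold change of all genes was -0.36, and the share of higher among called genes was 18.7% in place of 48.9%. On that scale Sdcbp was at 0.54 (edgeR adjusted p = 0.00293) and Cd9 at 0.30 (adjusted p = 0.0338), both still called higher. Rab27a (-0.92, edgeR adjusted p = 0.0109), Cd82 (-0.64) and Cd81 (-0.53) were called lower. Relative to the median of all genes, the M1 value was 0.90 under both scales for Sdcbp, 0.58 for Cd63 and -0.56 for Rab27a.

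Ratios of counts within a library need no scaling. The ratio of Cd9 to Cd81 counts was 20.9 in M1 (exact 95% interval 19.3 to 22.7) and 19.5 in RM1 (18.1 to 21.1), and lay between 10.0 and 12.0 in the other 4 libraries. The ratio of Sdcbp to Pdcd6ip counts was 3.71 in M1 and 3.05 in RM1, against 1.85 to 2.01 elsewhere. The ratio of Sdcbp to Rab27a counts was 162 in M1 (129 to 206) and 183 in RM1 (143 to 237), against 55.4 to 81.8 elsewhere. In these 3 ratios M1 and RM1 did not overlap the other libraries. These ratios were chosen with earlier results known, and the Clopper-Pearson intervals on which they rest cover counting error only.

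Among the counts of the 4 tetraspanins, Cd82 made up 6.58% in M1 and 7.44% in RM1, but 12.0% in M0, 12.4% in both RM0 and M2, and 12.5% in RM2. Cd81 made up 1.67% in M1 and 2.06% in RM1, and 2.92% to 3.17% in the others. Cd63 took its largest share in M1, 56.9%, and its smallest in RM2, 48.1%. Cd9 took its largest share in RM1, 40.2%. Most of the sum is Cd63 and Cd9, which were called higher with M1, so the shares of Cd82 and Cd81 can fall without a change of their own, and neither was called for M1 (adjusted p = 0.0639 and 0.246 in edgeR). The ratio of Cd63 to Cd9 counts did not set the M1 states apart. It was 1.63 in M1 (1.60 to 1.67) and 1.25 in RM1 (1.22 to 1.28), 1.65 in M2 and 1.32 in RM2, and 1.48 in M0 and 1.54 in RM0.

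**Figure D3:**
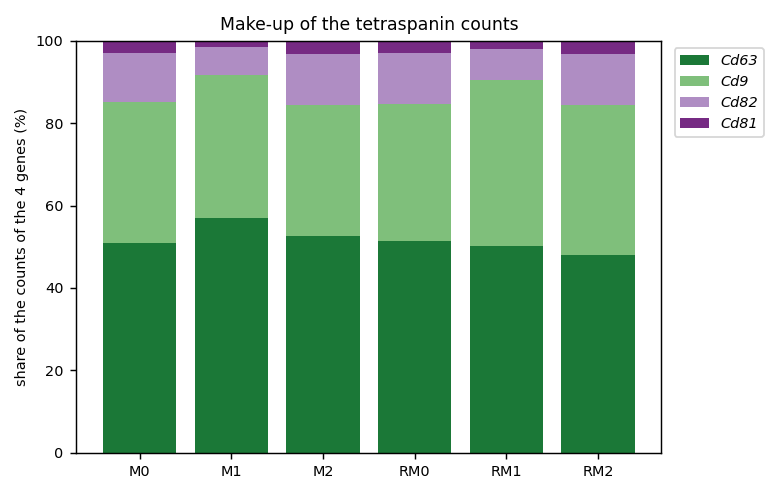
Share of each tetraspanin (vertical axis, in percent) among the summed counts of Cd63, Cd9, Cd82 and Cd81 in each of the 6 libraries (horizontal axis), 1 library per condition. Cd82 took 6.58% in M1 and 7.44% in RM1 against 12.0% to 12.5% in the other 4 libraries.

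Of 8 tested macrophage markers, edgeR called 2 higher with M1, Fcgr1 (2.63 ± 0.15) and Adgre1 (1.82 ± 0.15), and 2 lower, Csf1r (-1.07 ± 0.13) and Lyz2 (-0.82 ± 0.20). Of all genes, 47.6% were called for M1. Genes listed as markers of other cell types also moved with M1. S100a8, a calcium-binding protein of myeloid cells used as a neutrophil marker, was at 4580 counts in M0 and 32464 in M1, and at 6667 in RM0 and 51228 in RM1. S100a9 did not exceed 19 counts and Mpo 3 counts in any library. Dcn, a proteoglycan used as a fibroblast marker, was at 113 counts in M0 and 627 in M1, while the defining collagens Col1a2 and Col3a1 had 0 counts in all libraries. Summed over the 3 neutrophil markers found of 4 listed, counts were 4587, 32468, 2850, 6669, 51248 and 3496 in M0, M1, M2, RM0, RM1 and RM2. Summed over the 5 fibroblast markers, they were 120, 631, 120, 159, 730 and 185. The 3 endothelial markers summed to 17 to 56 counts, mostly Pecam1, and the 3 erythroid markers to 0 to 4. Pecam1 had 11 counts in M0 and 23 in M1, and 25 in RM0 and 40 in RM1. It was called higher with M1 (1.13 ± 0.36, edgeR adjusted p = 0.0246). With 35 counts in M2 and 47 in RM2, its fitted M2 effect was as large (1.19 ± 0.35) but not called (edgeR adjusted p = 0.379). The part of these genes in the M1 differences of the members was not tested. In bulk RNA, fewer cells of a type cannot be told apart from less RNA per cell.

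The second question was whether 10 Gy changed these transcripts in all states alike. None of the 10 members passed the shared irradiation test in edgeR, against 0.475% of all genes. The count was also 0 at an unadjusted p under 0.05, where 14.7% of all genes stood, and 0 with DESeq2. The largest fitted value was that of Rab27a, with a log2 fold change of -0.36 ± 0.17 (SE, 3 pairs; edgeR adjusted p = 0.36) and lower levels in 3 of 3 pairs. Cd63 was at -0.24 ± 0.13 (adjusted p = 0.415) with lower levels in 2 of 3 pairs, and Tsg101 at 0.18 ± 0.10 (adjusted p = 0.411) with higher levels in 3 of 3 pairs. The levels of irradiated and non-irradiated libraries did not overlap for Tsg101 and Pdcd6ip, 2 of 10 members, against 6.01% of all genes. For Pdcd6ip the difference was 0.07 ± 0.10 (adjusted p = 0.768).

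**Figure D4:**
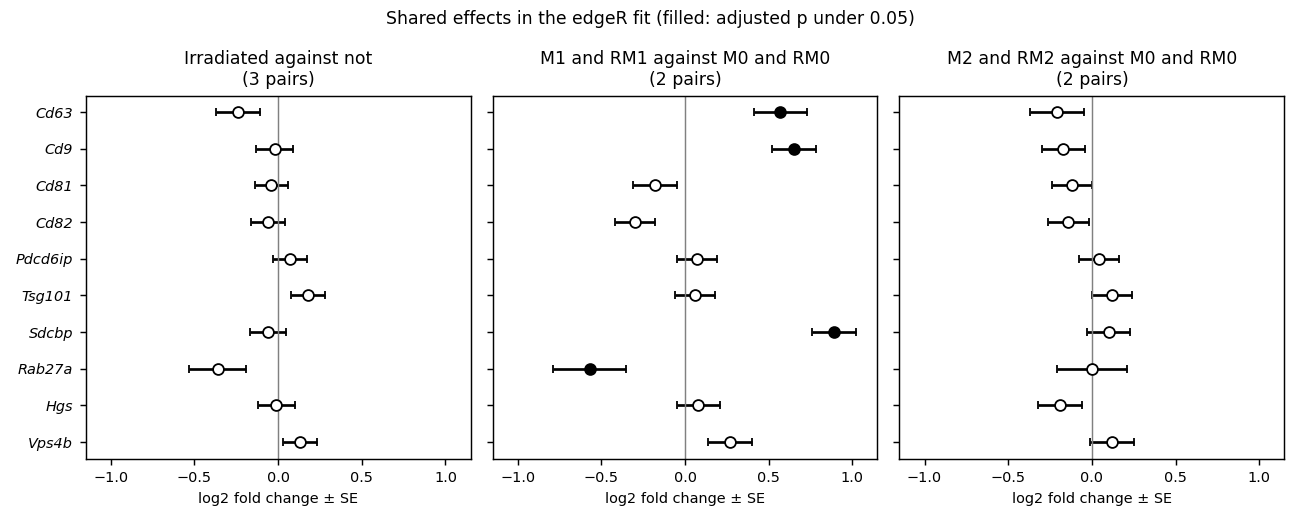
Shared log2 fold change of each gene (horizontal axes) with its standard error in the edgeR fit, for irradiation, M1 and M2. Filled points have an adjusted p under 0.05: Sdcbp, Cd9, Cd63 and Rab27a in the M1 panel, and none in the other panels.

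Each irradiated library was also set beside the non-irradiated library of its state. Such differences compare 2 libraries, have no replicate check and carry no p-value, and their intervals cover counting error only. No member passed 2-fold in RM0 against M0, RM1 against M1 or RM2 against M2, where 1.54%, 5.34% and 1.97% of genes did. The member with the largest difference between RM1 and M1 was Cd63, 1010 against 1430 CPM, a log2 fold change of -0.51 (exact 95% interval -0.54 to -0.48). For Cd63 the difference was 0.04 (0.01 to 0.07) between RM0 and M0 and -0.24 (-0.28 to -0.21) between RM2 and M2.

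Vps4b was higher in RM1 than in M1 by a log2 fold change of 0.31 (0.23 to 0.39), and differed by 0.13 (0.05 to 0.21) between RM2 and M2 and by -0.07 (-0.15 to 0.01) between RM0 and M0. Rab27a was lower in RM2 than in M2, at -0.53 (-0.90 to -0.17), with 108 against 160 counts. Its intervals in the other states, -0.55 to 0.18 and -0.86 to 0.14, spanned 0. Hgs was higher in RM0 than in M0 by 0.21 (0.12 to 0.30). Sdcbp, the gene with the largest M1 effect, differed by -0.19 (-0.22 to -0.15) between RM1 and M1, by -0.03 (-0.08 to 0.01) between RM0 and M0 and by 0.03 (-0.01 to 0.07) between RM2 and M2.

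Polarization was set out in the same way for each radiation status. No member passed 2-fold in M1 against M0 or RM1 against RM0, where 22.7% and 14.0% of genes did. Sdcbp came nearest, at 0.96 (0.92 to 1.00) between M1 and M0 and 0.81 (0.77 to 0.85) between RM1 and RM0. For Cd9 the values were 0.70 (0.66 to 0.74) and 0.60 (0.56 to 0.64). For Cd63 they were 0.84 (0.81 to 0.87) without and 0.29 (0.26 to 0.32) with irradiation, and for Vps4b 0.08 (-0.00 to 0.17) and 0.46 (0.38 to 0.54). Whether the M1 difference depends on irradiation was tested with 1 term added to the fit after the data were seen, the irradiation effect in M1 minus that in M0 and M2, which are assumed alike. Only 1 residual degree of freedom remained. None of the 10 members passed in edgeR, against 8.67% of all genes, and 1 was under an unadjusted p of 0.05. That was Cd63, at -0.41 ± 0.16 (SE; edgeR adjusted p = 0.0876), and Vps4b was at 0.28 ± 0.17 (adjusted p = 0.311). The same term for M2 was passed by 0 members, with 0 at an unadjusted p under 0.05, and by 0.0346% of all genes. For both terms the share of all genes under an unadjusted p of 0.05 is not given here, so these unadjusted counts have no background.

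The third question concerned M2 polarization. None of the 10 members passed the shared M2 test in edgeR, against 0.19% of all genes. The count was 0 with DESeq2, and 0 at an unadjusted p under 0.05, against 10.1% of all genes. The fitted log2 fold changes lay between -0.21 (Cd63) and 0.12 (Tsg101 and Vps4b). The levels of M2 and RM2 did not overlap those of M0 and RM0 for 6 of 10 members and for 51.8% of all genes. No member passed 2-fold in M2 against M0 or RM2 against RM0, where 1.44% and 2.61% of genes did. Between RM2 and RM0 Cd63 was at -0.34 (-0.38 to -0.31), and between M2 and M0 at -0.06 (-0.09 to -0.03).

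Other genes of the vesicle pathway were described from 7 fixed lists of 109 genes, of which 82 passed the filter. In the M1 effect 49 of these 82 were called (59.8%, against 47.6% of all genes), 42 higher and 7 lower. Of all genes, 23.3% were called higher and 24.3% lower. With library totals 39 were called, 17 higher and 22 lower (47.6%, against 50.5% of all genes), and without the M0 library 34 (41.5%, against 32.1%). Of the 11574 genes tested, 1091 were called higher and 4750 lower for M1 with library totals. Their median M1 log2 fold change was then -0.36. With all 6 libraries 0 list genes passed for irradiation or for M2 in edgeR, and DESeq2 called 0 for both. At an unadjusted p under 0.05 there were 7 list genes for irradiation, 2 of them higher (8.54%, against 14.7% of all genes), and 9 of 82 for M2, 3 of them higher (against 10.1% of all genes). For M2, edgeR called 14 list genes, 4 higher and 10 lower, without the M1 library and as many without RM1 (17.1%, against 12.1% of all genes in both fits), and 1 without M0 (1.22%, against 2.27%). For irradiation it called 2 without M1 or without RM1 (2.44%, against 4.76% and 4.74%), and 1 without M0 or without RM0 (1.22%, against 6.06% and 5.66%).

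Of 15 tested genes of ESCRT-III and its disassembly, 10 rose and 1 fell with M1 (23.3% and 24.3% over all genes), with a list median of 0.45. The largest increases were those of Chmp2b (0.85 ± 0.13, adjusted p = 0.000438), Chmp2a (0.82 ± 0.12) and Chmp1b (0.68 ± 0.13), filament subunits that narrow the bud. Chmp6 fell by 0.50 on the log2 scale, and Chmp4b, the most abundant of the list at 3983 to 7035 counts, was at 0.63 ± 0.15. Of 12 tested genes of ESCRT-0, -I and -II, 6 rose and 1 fell (median 0.37), led by Vps37c (0.76 ± 0.15), Ubap1 (0.72 ± 0.13) and Stam (0.69 ± 0.14), while Mvb12b was at -0.67 ± 0.12. Vps37c, Ubap1 and Mvb12b encode subunits or partners of ESCRT-I, and Stam encodes the partner of HGS in ESCRT-0. With library totals the calls of the first list were 2 higher and 1 lower (median 0.10), and those of the second 2 higher and 3 lower (median 0.03). Without the M0 library 6 genes of the first list were called higher.

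Of 7 tested genes of the syndecan-syntenin axis, 4 rose and 1 fell (median 0.49), against 23.3% and 24.3% of all genes. The syndecans, whose cytoplasmic tails bind syntenin, rose: Sdc3 by 1.65 ± 0.14 (adjusted p = 1.21e-05), Sdc4 by 1.14 ± 0.14 and Sdc1 by 0.78 ± 0.14, while Sdc2 had 0 counts in all libraries. Pld2, a phospholipase D, was at -0.94 ± 0.17, and Arf6, its small GTPase partner, at 0.07. Arf6 had the highest mean count of the list over the 6 libraries, not scaled for length. Of 10 tested tetraspanins outside the 4 members, 4 rose and 2 fell (median 0.17), with 47.6% of all genes called in either direction. Tspan3 was at 1.55 ± 0.19 (adjusted p = 0.000107), Tspan13 at 0.67 ± 0.13 and Tspan17 at 0.58 ± 0.16, while Tspan14 was at -0.53 ± 0.12 and Tspan4 at -0.42 ± 0.15. Cd53, the leukocyte tetraspanin that was most abundant in this list, was at 0.23 (adjusted p = 0.2). Without the M0 library 2 of these tetraspanins were called higher. With library totals 1 tetraspanin of this list was called higher and 4 lower. The list median was then -0.18, against -0.36 over all genes. In the syndecan list 3 were then higher and 1 lower (median 0.14).

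Of 15 tested Rab GTPases, effectors and SNAREs of vesicle release, 6 rose and 1 fell (median 0.10). The share called was near that of all genes, 47.6%. Rala, a Ras-like GTPase of exocytosis, was at 0.93 ± 0.13, Rab9, of late endosomes, at 0.72 ± 0.16, and Snap23, a membrane-fusion protein, at 0.72 ± 0.13. Rab2b was at -0.52 ± 0.19, with 67.9% of its 100-base windows in another transcript, and Rab31, the most abundant, at -0.04. Rab27b, the paralog of Rab27a, and its effectors Sytl4 and Sytl5 had 0 counts in all 6 libraries, and Sytl1, Sytl2 and Sytl3 had at most 3. Vamp7 was listed at 0 counts. With library totals 2 genes of this list were called higher and 7 lower. The list median was then -0.25, against -0.36 over all genes.

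Of 5 tested genes of the ceramide route of budding, Smpd1, the acid sphingomyelinase, rose by 0.46 ± 0.12 (edgeR adjusted p = 0.0117). The others did not pass, while 47.6% of all genes were called for M1. Cers2, a ceramide synthase and the most abundant of the list, was at 0.16. Smpd3, the neutral sphingomyelinase of this route, had at most 1 count in a library. With library totals or without the M0 library edgeR called 0 genes of the list, and without the M1 library 2.

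Of 18 tested genes of abundant vesicle cargo, 11 rose and 1 fell (median 0.50), against 23.3% and 24.3% of all genes. Hspa8, a constitutive chaperone, was at 1.33 ± 0.18 and Lamp2, a lysosomal membrane protein, at 1.12 ± 0.14. The gene called lower was Flot1, a raft protein, at -0.66 ± 0.15. Pkm, a glycolytic enzyme and the most abundant gene of the list, was at -0.27 (adjusted p = 0.219). Gapdh had the largest fitted value, 2.07 ± 0.29, on only 152 to 829 counts. It also shares 100-base windows with 74 other annotated genes, so it is reported as uncertain. Hspa8 is likewise reported as uncertain, with 32.1% of its windows in 8 other genes. With library totals the list had 7 genes called higher and 6 lower (median 0.16), and without the M0 library 6 were called higher.

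**Figure D5:**
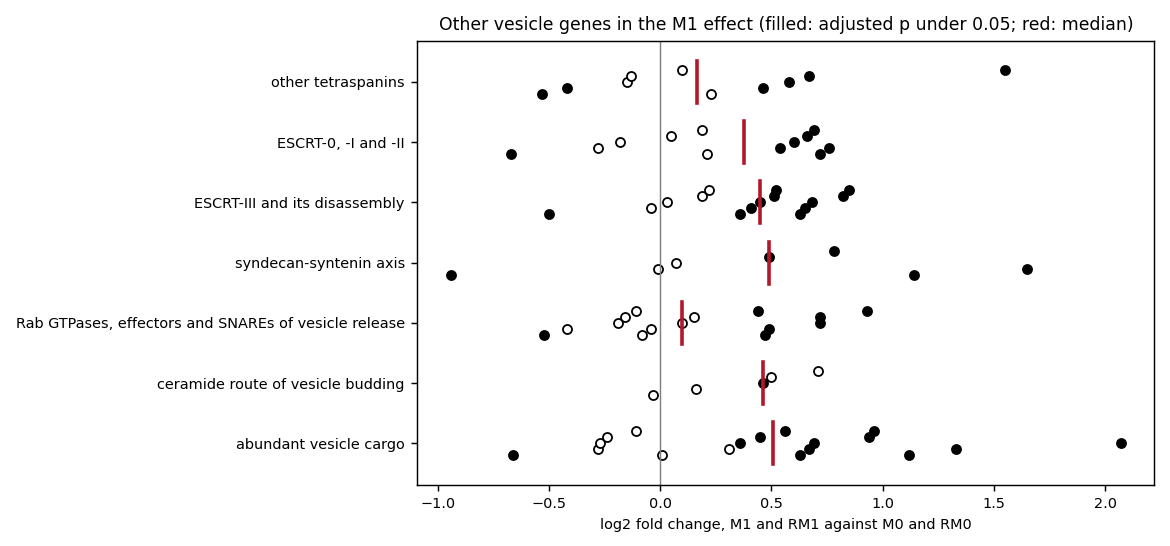
Shared M1 log2 fold change (horizontal axis) of each tested gene in the 7 fixed lists (vertical axis), with filled points for an adjusted p under 0.05 in the edgeR fit and a red line at the list median. In ESCRT-III and its disassembly 10 of 15 genes were called higher and 1 lower, against 23.3% and 24.3% of all genes. The list medians lay between 0.10 and 0.50 with TMM scaling, against -0.02 over all genes.

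The likeness of a pattern was measured as the root mean square distance between log2 CPM profiles, each centered over the 6 libraries, among the same 8464 genes. The rule for naming neighbors asked for a member past 2-fold, and there was none, so the following were chosen after their values were seen. The nearest pattern to Sdcbp was that of Nampt, an enzyme of NAD salvage, at a distance of 0.0333 on the log2 scale, with 2490, 3427, 2581, 2274, 3564 and 2650 counts in M0, M1, M2, RM0, RM1 and RM2. The nearest to Cd9 was that of Rps15a, a ribosomal protein, at 0.0326, and the nearest to Cd63 that of Mrpl53, a mitochondrial ribosomal protein, at 0.0289.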

How the data were processed

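The labels name 6 conditions of RAW264.7 cells with 1 library each. Per the submitters' processing notes, which give no order, Trimmomatic 0.36, HISAT2 2.2.1, HTSeq 0.11.3 and mm10 were used, and the authors deposited raw counts per RefSeq gene, without normalization. Strandedness of the counting is not given in the sources used here. Coordinates are those of GRCm38.

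Counts were scaled by TMM factors (edgeR 4.0.16, R 4.3.3) computed on the 11574 genes that reached 10 counts in 3 or more libraries. Shared effects came from the edgeR quasi-likelihood test with 2 residual degrees of freedom. Standard errors were the log2 fold change divided by the square root of F. The script was tested on simulated data. Differences between 2 libraries used a prior count of 2 and 95% Clopper-Pearson intervals, and levels exact Poisson intervals. Python 3.11.15 was used elsewhere.

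Members and lists were chosen with earlier results of these data known. From each list the text names up to 3 called genes per direction and test with the largest change, and the most abundant gene. List genes at or near 0 counts were named after their values were seen. Alternatives were DESeq2 (1.42.0) size factors and test, library totals, no filter, 1 library left out, 1 factor left out, other folds, minimums and prior counts. TMM factors over all genes, used in the first fit run, were kept as an alternative, and they and an interaction term were added after the data were seen. Other columns of the tables and the exosome measurements were not used here. A further polarization marker is not reported here.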

Additional observations from a re-analysis of the deposited data

Results flagged for a closer look

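Some members moved in opposite directions under the same contrast in different states, with counting intervals on opposite sides of 0. These directions depend on the scaling, as given below. Irradiation went with a log2 fold change of Cd63 of 0.04 in M0 but -0.51 in M1 and -0.24 in M2, and with library totals -0.01, -0.36 and -0.30. For Cd82 the values were 0.07 in M0, -0.15 in M1 and -0.10 in M2, and with library totals 0.02, -0.01 and -0.15. Cd9 was at -0.12 in M1 and 0.08 in M2, and with library totals at 0.02 in both. Hgs was at 0.21 in M0 and -0.20 in M1 after irradiation, and its M1 difference was 0.29 without and -0.12 with irradiation, comparisons that draw on the same 4 libraries. With library totals its values were 0.16 and -0.05 for irradiation, and -0.15 and -0.37 for M1. With an interaction term for M1 in the edgeR fit, which leaves 1 residual degree of freedom and was added after the data were seen, the irradiation effect in M1 minus that of the other states was -0.41 ± 0.16 for Cd63 (adjusted p = 0.0876), -0.15 ± 0.16 for Cd9 (0.626), -0.14 ± 0.17 for Cd82 (0.675) and -0.29 ± 0.17 for Hgs (0.307). With the term for M2 the adjusted p was 1.0 for these 4 genes. The differences between single pairs of states were not tested.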

How the results depend on the processing

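The irradiation test paired libraries by state, and without that term its calls went from 55 to 0. No member was called for irradiation or M2 under any alternative. For M1, Sdcbp and Cd9 were called under all 12 alternatives, Cd63 under 10, Rab27a under 4, Cd82 under 2, and Cd81 and Vps4b under 1 each. Members called for M1 numbered 2 to 5 with a library left out. Counts of all genes called for M1 were 5509, and 3687 to 6780 with a library left out. For irradiation there were 55 (40 higher, 15 lower; 45 and 29 with DESeq2 size factors), but 3, all higher, with library totals, 156 without a filter and 114 with DESeq2, and 77 to 695 with a library left out, fits that leave 1 residual degree of freedom. For M2 there were 22 (18 higher, 4 lower), but 3, all higher, with library totals, 56 without a filter, 0 without irradiation in the fit and 41 with DESeq2, and 18 to 1398 with a library left out. Called lower in the fixed lists for M1 with a library left out were 1 or 2 of the other tetraspanins (2), 1 or 2 of ESCRT-0, -I and -II (1), 0 or 1 of ESCRT-III (1), 0 or 1 of the Rab list (1) and 1 to 3 of the cargo (1), the values in parentheses with all libraries. TMM factors over all genes gave 53, 5509 and 28 calls for irradiation, M1 and M2, and 0, 4 and 0 of the members.

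Signs that turned belonged to values that were not called. With library totals the M1 values were -0.28 for Pdcd6ip, -0.29 for Tsg101, -0.26 for Hgs and -0.07 for Vps4b, and the irradiation value of Hgs was 0.01, as with TMM over all genes. With a library left out, irradiation values ranged from -0.07 to 0.03 for Cd9, -0.11 to 0.03 for Cd81 and -0.12 to 0.09 for Hgs, the M1 value of Hgs from -0.08 to 0.25, and M2 values from -0.41 to 0.02 for Cd63, -0.14 to 0.14 for Rab27a and -0.01 to 0.27 for Vps4b. The M2 value of Rab27a was -0.01 with DESeq2 size factors or test and -0.0 with TMM over all genes.

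At 1.5-fold, all-gene calls between 2 libraries were 696 (RM0 against M0), 2036 (RM1 against M1) and 848 (RM2 against M2). For polarization they were 5268 of 11778 genes (M1 against M0), 582 (M2 against M0), 3816 of 11713 genes (RM1 against RM0) and 1211 (RM2 against RM0). Members called were 3 of 10 in M1 against M0 (Sdcbp, Cd63, Cd9) and 3 of 10 in RM1 against RM0 (Sdcbp, Cd9, Rab27a). In neither comparison was this a larger share than that of all genes. At 4-fold the all-gene calls were 9, 84, 12, 653, 10, 340 and 34 in the order above. With at least 50 counts in 1 library they were 55, 304, 67, 38 and 104, in that order without M1 against M0 and RM1 against RM0, where the count stayed within 1.5 times. The cause of these shifts was not tested. Depth limits Rab27a most, at 65 to 160 counts.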
